A study of Homo sapiens with 12 samples.

Results

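The genes described here are 10 kinases of mitosis and its checkpoints: PLK1, PLK4, AURKA, AURKB, BUB1, BUB1B, TTK, NEK2, MELK and PBK. They were chosen by name, with earlier results of these data known. All probe sets that the platform annotation assigns to them were taken, 19 of the 22277 probe sets on the array, which name 10 of 11963 genes. Expression was measured on 12 arrays from 22RV1 and LnCaP, established human prostate cancer cell lines, with 3 replicates in each of 4 groups. The groups were untreated 22RV1, 22RV1 exposed to nicotine tartrate at 100 µM for 24 h, untreated LnCaP, and LnCaP exposed in the same way. The labels name no vehicle for the untreated cells. They do not say whether replicates were separate cultures, so the p-values describe only how far these arrays spread, and that spread can be technical. The comparison asks what nicotine exposure does to the transcripts of prostate cancer cells, in a series whose title concerns prostate tumors of smokers.

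Mitotic kinases are enzymes that order the events of cell division by phosphorylating proteins of centrosomes, spindle microtubules and kinetochores, the structures by which chromosomes attach to the spindle. Most of their genes are transcribed mainly in the late phases of the cell cycle, so their transcripts are abundant in cultures with many dividing cells. In tumor tissue, prostate included, they are widely used as markers of proliferation, and several of the enzymes are drug targets.

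After nicotine, the brightest probe set of each of the 10 genes had a lower mean than in untreated cells in both lines, and the difference was larger in LnCaP for all 10. In LnCaP, 4 genes fell in the unpaired fit, BUB1B, PBK, PLK4 and TTK, and 9 fell, all but NEK2, in a fit that pairs arrays of the same replicate number (the replicate block). A gene was called by its brightest probe set, and is said to have fallen, at an adjusted p under 0.05 in limma. Limma is a linear model, fitted here to all 22277 probe sets with Benjamini-Hochberg adjustment over them. Of all probe sets, 0.359% were called lower in LnCaP, and 2.23% with the block. Values below are from the unpaired fit unless the block is named. The median log2 difference of the 10 genes in LnCaP was -0.67, against -0.0014 over the brightest probe sets of all 11963 genes. In 22RV1 the median was -0.26, against -0.0071 over all genes, and limma called 0 of the 10 and 0% of all probe sets. In RNA from whole cultures, fewer dividing cells and less of these transcripts per cell cannot be told apart.

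RefSeq start-site windows (GRCh38.p14), from 250 bases before to 50 bases after the start, were given for 7 of the 10 genes, in 10 windows. AURKA, TTK and PBK have none here. Because the members moved together, the windows were searched on both strands for sequences known from promoters of cell cycle genes. These were the cell cycle genes homology region or CHR (with either TTTGAA or else TTCGAA), the CCAAT box (letters CCAAT) and E2F-type sites (written as TTCCCGC, else as TTGGCGC, else as TTCGCGC). The 120 bases before the start are shown for the called genes BUB1B and PLK4 and for 3 other genes with a match there, read 5′ to 3′ on the gene's strand, with matches in capitals (CCAAT on the other strand reads ATTGG). The motifs do not overlap here, and PLK4 has none in this stretch.
BUB1B, chr15:40160949-40161068, plus strand: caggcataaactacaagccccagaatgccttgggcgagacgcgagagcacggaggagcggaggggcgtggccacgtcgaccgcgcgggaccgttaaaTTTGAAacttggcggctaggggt
PLK4, chr4:127880773-127880892, plus strand: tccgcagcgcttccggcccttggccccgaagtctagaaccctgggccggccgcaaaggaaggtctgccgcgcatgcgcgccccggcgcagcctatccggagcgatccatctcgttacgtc
PLK1, chr16:23678769-23678888, plus strand: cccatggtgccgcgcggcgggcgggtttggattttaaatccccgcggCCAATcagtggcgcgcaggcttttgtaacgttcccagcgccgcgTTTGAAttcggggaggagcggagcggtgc
BUB1, chr2:110678064-110678183, minus strand: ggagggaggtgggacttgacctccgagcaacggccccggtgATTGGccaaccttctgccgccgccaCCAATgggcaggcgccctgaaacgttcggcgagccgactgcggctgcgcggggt
NEK2, chr1:211675622-211675741, minus strand: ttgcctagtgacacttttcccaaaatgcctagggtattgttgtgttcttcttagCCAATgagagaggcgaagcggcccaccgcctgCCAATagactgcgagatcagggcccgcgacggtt

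A CHR sequence lay in windows of 4 of the 7 genes, 4 windows of the 10. Its first base was at position -23 in BUB1B and -29 in PLK1, counted from the start site, and at positions 2 in BUB1 and 39 in PLK4, beyond the stretch shown. Of all 35116 windows, 16.4% held a CHR sequence. The CCAAT box lay in windows of 5 of the 7 genes (AURKB, BUB1, NEK2, PLK1 and PLK4), 6 windows of the 10, and in 34.6% of all windows. The AURKB windows overlap and hold the same CCAAT, at -153 and -129 from their start sites, so this site is counted more than once. The CCAAT matches of AURKB and PLK4 lay at start sites other than the annotated gene start. An E2F-type site lay in 1 window of the 10, at another start site of PLK4, against 11.0% of all windows. MELK had no match in its window. These matches are letters only, and the arrays did not measure binding or promoter activity.

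The called member with the smallest p was BUB1B, which encodes BUBR1, a spindle checkpoint protein that restrains the anaphase-promoting complex. Its log2 values in LnCaP were 9.89, 9.85 and 9.76 in untreated replicates 1 to 3 and 9.30, 9.09 and 9.20 in treated ones. The groups did not overlap, and the gap between them was wider than the spread within either. BUB1B had a log2 difference of -0.63 ± 0.09 and so fell (SE, 3 arrays per group, limma adjusted p = 0.0197). In 22RV1 the untreated values were 10.22, 10.13 and 10.36 and the treated ones 9.98, 10.15 and 10.09. There the groups overlapped, at a log2 difference of -0.16 ± 0.09 (SE, limma adjusted p = 0.974).

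TTK encodes MPS1, the kinase that starts checkpoint signalling at unattached kinetochores. In LnCaP its log2 values were 7.56, 7.90 and 7.60 untreated and 7.22, 6.85 and 6.95 treated, without overlap. TTK fell by 0.67 ± 0.13 (SE, limma adjusted p = 0.049), just inside the threshold. In 22RV1 the values were 8.38, 8.53 and 8.75 untreated and 8.21, 8.26 and 8.37 treated. Every treated value was below every untreated one there too, narrowly, at -0.27 ± 0.13 (limma adjusted p = 0.958). BUB1, the kinase that marks centromeric chromatin and recruits other checkpoint proteins, had LnCaP values of 7.72, 8.16 and 7.83 untreated and 7.54, 7.05 and 7.10 treated. The groups were separate but treated replicate 1 lay close to the untreated values, and the log2 difference of -0.67 ± 0.14 passed only with the block (limma adjusted p = 0.0713, and 0.043 with the block). Its 22RV1 values of 8.06, 8.08 and 8.29 untreated and 7.72, 7.86 and 7.71 treated did not overlap either. At -0.38 ± 0.14 this was the largest difference among the brightest probe sets in 22RV1, with an unadjusted p of 0.0207 and a limma adjusted p of 0.888.

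PLK4, the kinase that starts centriole duplication, fell by 0.77 ± 0.13 in LnCaP (SE, n = 3 per group, limma adjusted p = 0.0306). Its log2 values there were 8.40, 8.04 and 8.30 untreated and 7.57, 7.30 and 7.56 treated. All treated arrays lay well below all untreated ones. In 22RV1 the values were 8.89, 8.79 and 9.24 untreated and 8.73, 8.88 and 8.91 treated, with overlap and a difference of -0.14 ± 0.13. PLK1, which drives centrosome maturation, mitotic entry and cytokinesis, had the smallest difference of the 10 genes in LnCaP, -0.52 ± 0.20 (limma adjusted p = 0.339, and 0.0466 with the block). Its untreated LnCaP values of 7.96, 8.44 and 8.78 were widely spread, while its treated values of 7.80, 7.88 and 7.93 lay close together. The groups were separated only by the gap between untreated replicate 1 and treated replicate 3. In 22RV1 PLK1 stood at 8.69, 8.55 and 9.07 untreated and 8.27, 8.38 and 8.80 treated, and the groups overlapped.

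**Figure D1:**
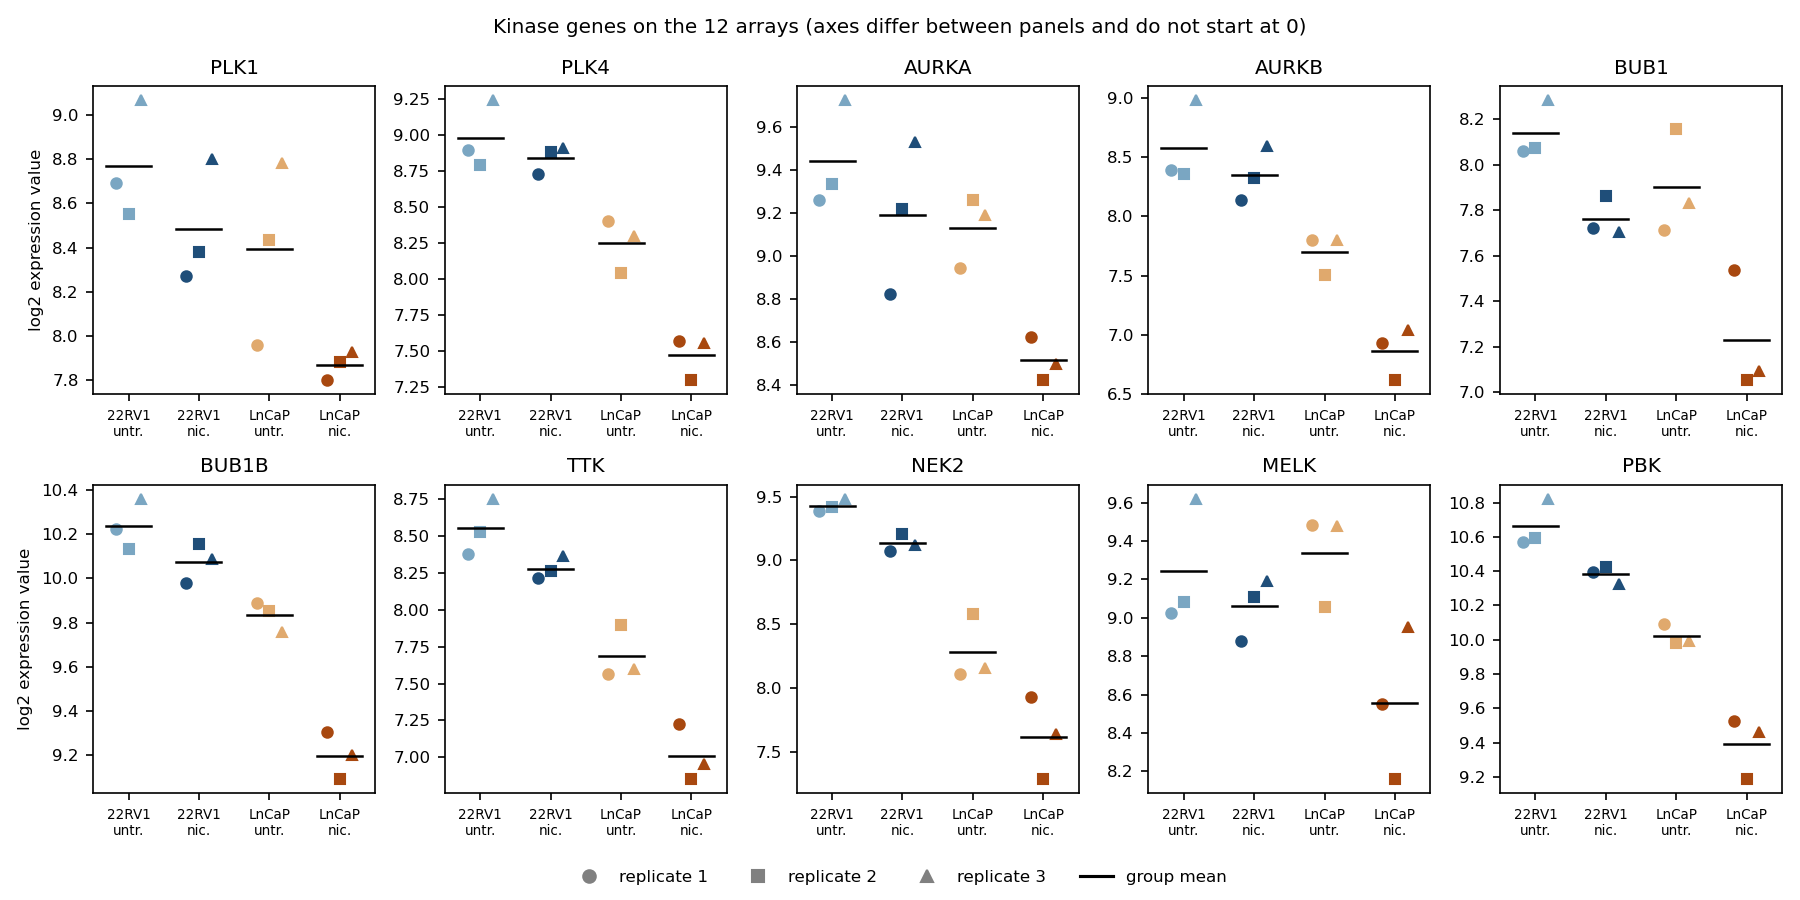
Log2 expression value (vertical axis) of the brightest probe set of each kinase gene on the 12 arrays, by group, with a marker shape for each replicate number and a line at the group mean. In LnCaP the treated arrays lie below the untreated ones in all 10 panels, whereas in 22RV1 the groups overlap in 6.

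AURKA encodes Aurora A, a kinase of centrosome maturation and spindle assembly. Its LnCaP values were 8.95, 9.26 and 9.19 untreated and 8.63, 8.42 and 8.50 treated, a difference of -0.62 ± 0.17 that passed only with the block (limma adjusted p = 0.146, and 0.0175 with the block). In 22RV1 the values of 9.26, 9.34 and 9.73 untreated and 8.83, 9.22 and 9.53 treated overlapped widely. AURKB encodes Aurora B, the kinase of the chromosomal passenger complex, which corrects faulty attachments of chromosomes. It had the largest LnCaP difference of the 10, -0.84 ± 0.18, from 7.80, 7.50 and 7.80 untreated to 6.93, 6.62 and 7.04 treated, which passed only with the block (limma adjusted p = 0.0726, and 0.00463 with the block). In 22RV1 it was at 8.39, 8.36 and 8.98 untreated and 8.14, 8.33 and 8.59 treated. The groups overlapped there, at -0.23 ± 0.18, and replicate 3 was the highest array of both.

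NEK2, a kinase that separates centrosomes at mitotic entry, had LnCaP values of 8.11, 8.58 and 8.16 untreated and 7.93, 7.28 and 7.64 treated. The groups were separate, at -0.66 ± 0.15, which passed in neither fit (limma adjusted p = 0.0907, and 0.0681 with the block). The second probe set of NEK2 passed with the block in LnCaP (limma adjusted p = 0.0325). In 22RV1 the values of the brightest probe set were tight, at 9.39, 9.42 and 9.48 untreated and 9.08, 9.21 and 9.12 treated. They again did not overlap, and the difference was -0.29 ± 0.15. MELK, a kinase of proliferating cells whose role in division is debated, ranged most within a treated group, from 8.16 to 8.95 in LnCaP. Its untreated LnCaP values were 9.48, 9.06 and 9.48, and the difference of -0.79 ± 0.21 passed only with the block (limma adjusted p = 0.131, and 0.01 with the block). In 22RV1 it was at 9.03, 9.08 and 9.62 untreated and 8.88, 9.11 and 9.19 treated. PBK, a mitotic kinase also known as TOPK, fell by 0.63 ± 0.10 in LnCaP (limma adjusted p = 0.0265), from 10.09, 9.98 and 9.99 untreated to 9.53, 9.19 and 9.46 treated. In 22RV1 it was at 10.57, 10.59 and 10.82 untreated and 10.40, 10.43 and 10.32 treated, without overlap, at -0.28 ± 0.10 (unadjusted p = 0.0172, limma adjusted p = 0.882).

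Counted over the 10 genes, the treated and untreated LnCaP arrays did not overlap for 10, and in 22RV1 for 4 (BUB1, NEK2, PBK and TTK). Of all probe sets, 8.49% were separate in that direction in LnCaP and 5.84% in 22RV1. At an unadjusted p under 0.05, limma gave 10 of the 10 genes in LnCaP and 2 in 22RV1, BUB1 and PBK, against 10.6% and 5.15% of all probe sets. Treated-to-untreated ratios ran from 0.559 (AURKB) to 0.696 (PLK1) in LnCaP and from 0.769 (BUB1) to 0.909 (PLK4) in 22RV1.

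The labels number the replicates alike in all groups. Over all probe sets, same-numbered deviations within a line correlated positively, least for number 2 in LnCaP (r = 0.179). The 10 genes followed this less clearly in LnCaP. Their mean, centred on the line, was lowest in replicate 1 among untreated arrays (0.28) but highest in replicate 1 among treated ones (-0.21). The block raised the SE of BUB1 from 0.142 to 0.150 and of NEK2 from 0.154 to 0.169, and lowered that of the other genes. The block took the number separately in each line. Its adjusted p in LnCaP was 0.00585 for PLK4, 0.00884 for BUB1B, 0.011 for PBK and 0.019 for TTK, the genes that passed in both fits. In 22RV1 the block also called 0 of the 10, and 0% of all probe sets, with PBK lowest at 0.336. The treated array was lower than the untreated array of its number in 57 of 60 comparisons of a gene and a pair. The 3 exceptions, PLK4, BUB1B and MELK, were all in 22RV1 pair 2. The 60 comparisons come from 6 array pairs and from genes that varied together, so they are not independent. By group mean rather than by pair, 52.3% of all genes were lower after nicotine in 22RV1 and 50.4% in LnCaP. The median pair difference of the 10 genes was -0.45, -0.86 and -0.67 in LnCaP pairs 1, 2 and 3, and -0.25, -0.14 and -0.37 in 22RV1.

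The 4 LnCaP calls of the unpaired fit depended on the arrays included, as did calls over all probe sets. The number of the 10 genes called was 0 without LnCaP untreated replicate 1, untreated replicate 3, treated replicate 1 or treated replicate 2. It was also 0 when the 6 LnCaP arrays were fitted on their own. It was 2 without 22RV1 untreated replicate 1, treated replicate 1 or treated replicate 2, which enter only the estimate of the spread. Without the 4 arrays numbered 3 it was 3 (AURKB, BUB1B and PBK). Over all probe sets, calls in either direction were 105 with all arrays. Without those LnCaP arrays they were 2, 11, 4 and 1, in that order, and 2 with LnCaP alone. Leaving out those 22RV1 arrays gave 59, 54 and 59, and leaving out the arrays numbered 3 gave 146. Without those LnCaP arrays the median difference of the 10 genes was -0.73, -0.71, -0.78 and -0.58. Treated replicate 2 was the lowest array of its LnCaP group for 9 of the 10 genes, all but PLK1, against 28.8% of all probe sets, and without it the median difference was -0.58. In 22RV1, untreated replicate 3 was the highest of its group for 10 of the 10 genes, against 41.3% of all probe sets. Without it the 22RV1 median was -0.12, with 9 of 10 negative, and without treated replicate 1 it was -0.15.

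**Figure D2:**
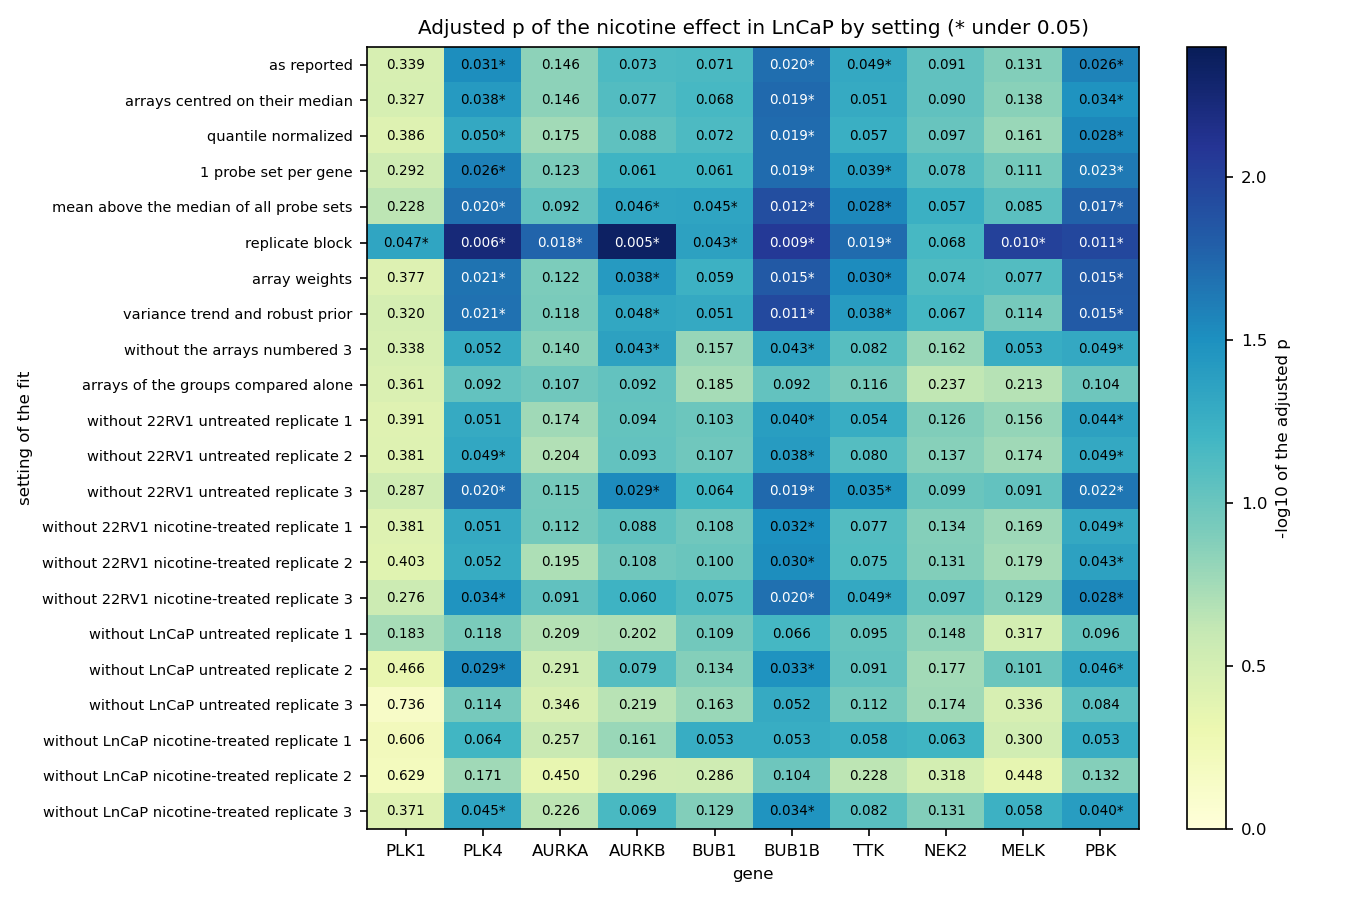
Adjusted p of the nicotine effect in LnCaP for the brightest probe set of each kinase gene (columns) under each setting of the fit (rows). Colour gives -log10 of the adjusted p, with a star under 0.05. BUB1B and PBK pass in the most settings, 16 of 21 alternatives each, and NEK2 passes in none.

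Where a gene had several probe sets, their differences were close for the brighter ones and mixed for the dim ones. BUB1 had 5 probe sets. The second brightest, in LnCaP, went from 7.47, 7.70 and 7.74 to 7.14, 6.91 and 7.07, at -0.59 ± 0.12 (limma adjusted p = 0.0528, and 0.0149 with the block). The other 3 lay at or below the 35.8th percentile of mean level over all probe sets and had LnCaP differences of 0.06, -0.06 and 0.0034. AURKA had 3. The second gave -0.61 ± 0.14 in LnCaP (limma adjusted p = 0.0829, and 0.0166 with the block), close to the first. The dimmest gave -0.12 ± 0.18 at the 19.6th percentile. PLK4 also had 3, with -0.36 ± 0.19 for the second and -0.61 ± 0.12 for the dimmest. Both were in the lower part of the range (34.8th and 25.8th percentile). The dimmest passed only with the block (limma adjusted p = 0.0528, and 0.0143 with the block). The second probe set of NEK2 gave -0.50 ± 0.11 in LnCaP (limma adjusted p = 0.0717, and 0.0325 with the block) and -0.46 ± 0.11 in 22RV1. The latter had the smallest unadjusted p of any member probe set in 22RV1, 0.00111 (limma adjusted p = 0.552). The 13 member probe sets above the median level of the array ranged from -0.84 to -0.50 in LnCaP and 4 of them fell, 12 with the replicate block. The 6 below it ranged from -0.61 to 0.06, and 0 passed limma, 1 with the block. In LnCaP, 0.359% of all probe sets were called lower without the block and 2.23% with it.

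**Figure D3:**
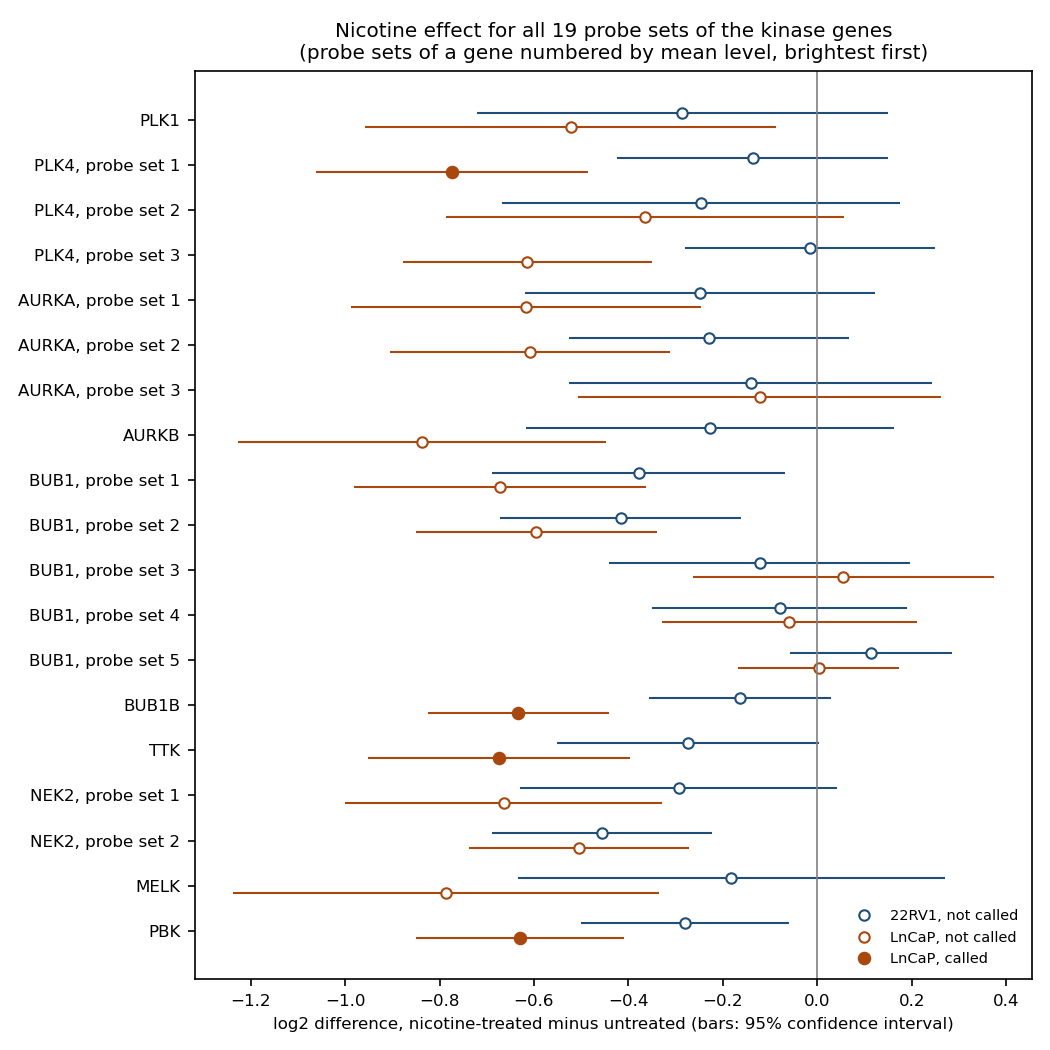
Log2 difference between treated and untreated cells (horizontal axis) for all 19 probe sets, with 95% confidence intervals, in 22RV1 and LnCaP. The intervals in LnCaP exclude 0 for the brightest probe set of each gene, and 4 points are filled as called. In 22RV1 no point is called.

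Averaged over both lines, 2 of the 10 genes fell, BUB1B by 0.40 ± 0.06 and PBK by 0.45 ± 0.07 (SE, n = 3 per group, limma adjusted p = 0.0364 for both), where 0.157% of all probe sets were called lower. The second probe sets of NEK2 (-0.48 ± 0.08, limma adjusted p = 0.0364) and BUB1 (-0.51 ± 0.08, limma adjusted p = 0.0404) also fell, although the brightest probe sets of these genes did not pass. With the replicate block, which called 1.19% of all probe sets lower, 9 of the 10 fell, all but NEK2. The second probe set of NEK2 passed with the block too (limma adjusted p = 0.0195). The unpaired calls again depended on the arrays included, as did calls over all probe sets. The count of the 10 genes was 0 when any of 11 of the 12 arrays was left out. It was 3 without LnCaP treated replicate 1, and 0 without the 4 arrays numbered 3. Over all probe sets, calls in either direction were 47 with all arrays and 0 to 14 in those 11 settings. They were 23 without LnCaP treated replicate 1 and 16 without the arrays numbered 3. The median difference of the 10 genes ran from -0.49 to -0.40 in those 11 settings, against -0.46 with all arrays.

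Whether nicotine acted differently in LnCaP and 22RV1 was tested with the difference of their effects, LnCaP minus 22RV1. It was negative for all 10 genes, with a median of -0.39 against 0.00016 over all genes. Limma called 0 of the 10 and 0% of all probe sets, and 5 of the 10 had an unadjusted p under 0.05, against 6.08% of all probe sets. The largest were PLK4 at -0.64 (95% confidence interval -1.04 to -0.23, limma adjusted p = 0.658), AURKB at -0.61 (-1.16 to -0.06, adjusted p = 0.774) and MELK at -0.60 (-1.24 to 0.03, adjusted p = 0.835). BUB1B, at -0.47 (-0.74 to -0.20), had the smallest limma adjusted p, 0.567. The second probe set of NEK2 differed by only -0.05 (-0.38 to 0.28). With the replicate block 0 passed as well, where 0.139% of all probe sets were called lower, and the smallest adjusted p was that of AURKB, 0.094. A larger effect in LnCaP was therefore not established for any of the genes.

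Before any treatment the lines already differed. Untreated LnCaP was lower than untreated 22RV1 for 6 of the 10 genes and higher for 0, where 20.9% of all probe sets were called lower and 22.8% higher. The untreated LnCaP arrays also enter the nicotine comparison in LnCaP. NEK2 had the largest line difference, -1.15 ± 0.15 (SE, limma adjusted p = 6.14e-05), followed by AURKB at -0.88 ± 0.18 (adjusted p = 0.00151) and TTK at -0.87 ± 0.13 (adjusted p = 0.000125). PLK4 was at -0.73 ± 0.13, PBK at -0.64 ± 0.10 and BUB1B at -0.40 ± 0.09, all lower in LnCaP. PLK1 (-0.38 ± 0.20), AURKA (-0.31 ± 0.17), BUB1 (-0.24 ± 0.14) and MELK (0.10 ± 0.21) did not pass, and for MELK the interval ran from -0.35 to 0.55. From these line means, nicotine-treated LnCaP had the lowest mean of the 4 groups for each gene. Untreated 22RV1 had the highest mean for all but MELK, whose untreated means of 9.24 ± 0.33 in 22RV1 and 9.34 ± 0.24 in LnCaP (SD, n = 3) were within their spread.

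Other genes of the mitotic kinase network were taken from lists by role, with the brightest probe set for each gene. The lists, too, were set with earlier results of these data known. Of 29 activators, partners and substrates of these kinases, 26 were measured. In LnCaP 24 of them had negative differences, with a median of -0.54, and 5 fell. TPX2, which activates Aurora A on the spindle, fell by 0.56 ± 0.08 (limma adjusted p = 0.0197), and ZWINT, a kinetochore protein, by 0.74 ± 0.11 (adjusted p = 0.0207). PRC1, a midzone microtubule bundler bound by PLK1, fell by 0.61 ± 0.10, and BIRC5, the survivin subunit of the Aurora B complex, by 0.74 ± 0.12. The fifth was CDCA8, another subunit of that complex, at -0.59. With the replicate block 13 fell, against 2.23% of all probe sets, and in the unpaired fit 5, against 0.359%. The count was 0 without LnCaP untreated replicate 1, treated replicate 1 or treated replicate 2 or with the LnCaP arrays alone, 1 without untreated replicate 3, and 3 without untreated replicate 2 or 22RV1 treated replicate 2. Calls over all probe sets also dropped in these settings, from 105, but not without LnCaP untreated replicate 2 (105). In 22RV1 22 of the 26 were negative, with a median of -0.22, and limma called 0.

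Of other kinases of cell division and its checkpoints, 18 of the 24 listed were measured. In this list 10 were negative in LnCaP and the median was -0.04. Under the replicate block 3 were lower, against 2.23% of all probe sets, and 0 passed the unpaired fit. The count was 1 with 1 probe set per gene, the filter on dim probe sets, array weights or a variance trend, or without 22RV1 treated replicate 3. It was 2 without LnCaP treated replicate 3 or without the 4 arrays numbered 3. The smallest p-values in that list were those of the DNA damage checkpoint kinases CHEK2, at -0.68 ± 0.14 (limma adjusted p = 0.0556), and CHEK1, at -0.76 ± 0.21 (adjusted p = 0.143). Both fell with the block (adjusted p = 0.0114 and 0.0372). Phosphatases that oppose mitotic kinases, with their regulators, had a LnCaP median of 0.05 over 15 genes, 5 negative and 10 positive, and 0 passed limma. CDC14B was at 0.50 ± 0.17 (adjusted p = 0.255) and rose with the block (adjusted p = 0.011), which called 1.57% of all probe sets higher. Its difference in 22RV1 was also positive, at 0.67 ± 0.17, but passed in neither fit (limma adjusted p = 0.688, and 0.0851 with the block). PPP1CB was at 0.27 ± 0.10 in LnCaP (adjusted p = 0.339).

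Of 15 measured transcriptional regulators of cell cycle genes, out of 19 listed, 2 fell in LnCaP. They were FOXM1 (-0.67 ± 0.10, limma adjusted p = 0.0197) and MYBL2 (-0.71 ± 0.12, adjusted p = 0.0332), which activate genes of late cell cycle phases. The list median was -0.09. The block called 3 lower, against 2.23% of all probe sets, and the unpaired fit 2, against 0.359%. The count was 0 without LnCaP untreated replicate 1, untreated replicate 3, treated replicate 1 or treated replicate 2, 0 with the LnCaP arrays alone, and 1 after quantile normalization or without 22RV1 untreated replicate 2, treated replicate 1 or treated replicate 2. Calls over all probe sets dropped in all these settings too. In 22RV1 limma called 0 of these 15 genes, with a median of 0.01.

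**Figure D4:**
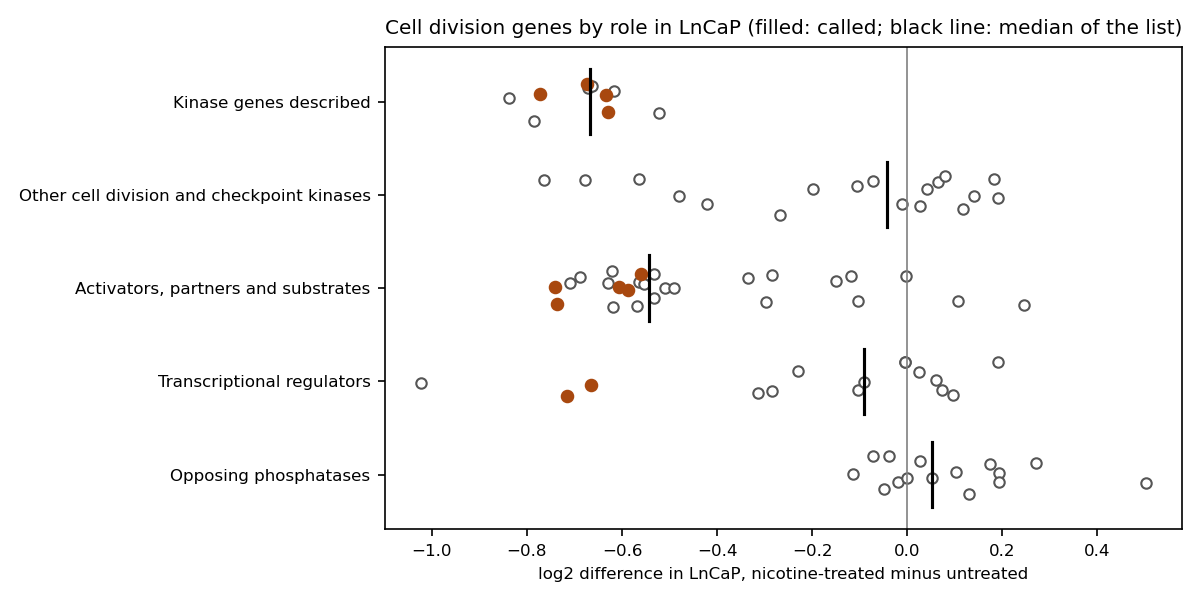
Log2 difference in LnCaP (horizontal axis) for the 10 kinase genes and the 4 lists by role, with each point a gene, filled where called, and a black line at the list median. The medians are -0.67 for the 10 genes, -0.54 for activators, partners and substrates, -0.09 for transcriptional regulators, -0.04 for other kinases and 0.05 for opposing phosphatases.

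The 10 genes varied together across arrays. With each value centred on its line's mean, the 45 pairwise correlations over the 12 arrays ran from 0.586 to 0.973, with a median of 0.836. These arrays share treatment and replicate number, so the values are descriptions. The member nearest to the mean profile of the 10 was BUB1B (r = 0.960) and the farthest PLK1 (r = 0.785). That mean includes the member itself, so these r are not comparable with those of other genes. Of the other genes, the profiles most like that mean were those of NUSAP1 (r = 0.985), BIRC5 (0.981), SAP30 (0.979), CDCA8 (0.978) and UBE2C (0.971), over the 12 arrays.

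Arrays of a group correlated with r of 0.992 to 0.997, and array medians differed by 0.095. The 8 measured markers of prostate epithelial tumor lines, such as KLK3 and HOXB13, lay between the 82.3rd and 98.9th percentile of mean level. Of the 11 measured markers of basal, fibroblast, endothelial and leukocyte cells, the highest lay at the 59.7th percentile (COL1A1). VWF was at 7.33 in untreated LnCaP and 7.89 in treated LnCaP, against 4.11 and 4.51 in 22RV1, while the other endothelial markers stayed at or below the 22.2nd percentile. The part of any such difference in the kinase results was not tested. The arrays numbered 3 held 38.9% of the residual sum of squares of the 10 kinase probe sets and 47.2% of that of all probe sets.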

How the data were processed

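Biotin-labelled cRNA was hybridised to single-colour Affymetrix arrays, per the labels' protocols. The authors deposited log2 expression values for 22277 probe sets, and how these were normalized is not stated in the labels used here. Array medians lay between 6.61 and 6.71. The values entered the fits unfiltered and without further normalization. The platform annotation gave the gene names, with 19070 having 1 symbol, 1043 several and 2164 none listed. Updating through Entrez identifiers changed 0. The probe set with the highest mean represented a gene (11963 genes).

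All arrays were fitted with limma 3.58.1 (R 4.3.3, lmFit and eBayes, group means), two-sided, with Benjamini-Hochberg adjustment over all probe sets. The script was tested on simulated data. Precision is limited by how few arrays there are: the median SE of a log2 difference within a line was 0.11.

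The members, lists, motifs and tests were chosen with earlier results of these data known. Named genes were all members, up to 4 called genes per role list or its 2 smallest p-values, and the 5 genes most like the members' mean. Over all probe sets, correlations of same-numbered deviations were 0.445, 0.424 and 0.626 in 22RV1 and 0.358, 0.179 and 0.554 in LnCaP. The numbers were therefore taken to pair the arrays. The fit named limma without further words is unpaired, and the fit with the replicate block is given beside each result it changes. Number 2 in LnCaP is less settled, since untreated replicate 2 correlated at 0.257 with treated replicate 1. In 22RV1, numbers 1 and 2 also correlated with each other (0.199 and 0.249), whereas number 3 correlated negatively with both in each line. Deviations within a group sum to 0, and the arrays numbered 3 held 47.2% of the residual sum of squares. These correlations therefore settle number 3 better than numbers 1 and 2. Alternatives were median centring, quantile normalization, 1 probe set per gene, a filter on dim probe sets, the block (6 blocks), array weights, a variance trend, the compared arrays alone, the second probe set, and leaving out arrays.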

Additional observations from a re-analysis of the deposited data

How the results depend on the processing

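For nicotine in LnCaP, the 4 kinase genes called became 9 with the replicate block and 0 with the arrays of the groups compared alone, where fewer arrays estimate the spread. Leaving out 1 array gave 0 to 5, and 1 to 134 of all probe sets. For the average of both lines, the 2 called became 9 with the replicate block, 4 with array weights, a variance trend, the filter on dim probe sets or the second probe set, and 0 without the arrays numbered 3. Leaving out 1 array gave 0 to 3, and 0 to 23 of all probe sets. In other settings both counts stayed within 1.5 times. The count was 0 in all settings run for 22RV1 and for the difference between lines, 0 to 0 on leaving out arrays. It was 6 for the untreated lines, 6 to 7 on leaving out arrays and 7 without the arrays numbered 3. No block could be fitted for the untreated lines, since blocks lie within lines. The causes were not tested. MELK reversed its sign, uncalled, without 22RV1 untreated replicate 3 (0.0069 in 22RV1, within a range of -0.29 to 0.0069) and without 22RV1 untreated replicate 1 (-0.010 for the untreated lines, within -0.010 to 0.29). The other genes kept their sign.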
